A study of Homo sapiens with 19 samples.

Results

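The WNT pathway was followed here through 10 genes, chosen by name for their roles, with earlier results of these data known. These were the ligand WNT3, the receptor FZD7 and the secreted antagonists DKK1, SFRP1 and SFRP2. The others were the feedback and target genes AXIN2, NKD1, LEF1, SP5 and LGR5. Together they were 10 of the 20503 gene symbols matched to probes, and 11 of the 50683 probes, since AXIN2 had a pair of probes. Of the 10 genes, 9 had a probe well above background on at least 5 arrays and entered the tests, and LGR5 did not.

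WNT ligands bind a Frizzled receptor together with an LRP co-receptor, which halts the breakdown of β-catenin, so that β-catenin accumulates, enters the nucleus and activates genes through the TCF/LEF factors. Many of the genes switched on in this way restrain the pathway again, at the receptor, in the cytoplasm or outside the cell. In the embryo this signalling is needed to form the primitive streak and the mesoderm, and human embryonic stem cells (hESCs) use it on the way to mesodermal fates.

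The samples were KhES-3 cells, an hESC line, collected at 19 times from 3 to 72 h after transfer to low-attachment dishes for differentiation into brown adipocytes (BAs). All samples shared the same serum-free medium, which contained BMP4 and KITLG at 20 ng/ml, IGF-II and VEGFA at 5 ng/ml, and FLT3LG and IL-6 at 2.5 ng/ml. The medium as listed had no WNT ligand, and there was no undifferentiated or untreated sample, so the earliest values are those at 3 h. According to the labels the hESCs had been kept on irradiated mouse embryonic fibroblasts, whereas the study's methods describe feeder-free culture.

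Each time point was 1 array, so there was no replicate, the spread between cultures was unknown, and each test measured the scatter of the arrays around a trend. The 6 arrays from 3 to 12 h lay on the first slide, the 8 from 14 to 42 h on the second and the 5 from 48 to 72 h on the third, which was scanned on a later day. Later times were thus also later slides, and each fit was repeated with a term for the slide (the slide as a block). Between 49.5% and 64.7% of probes were well above background per array, with the lowest shares, 49.5%, 52.0% and 53.8%, on the arrays of 14, 16 and 72 h. The 8 hESC markers, among them POU5F1 and NANOG, were well above background on all 19 arrays, and by the slope on time 5 of them fell, 1 with the slide as a block, where 22.4% and 4.47% of all tested probes did. From 3, 4 and 6 h to 60, 66 and 72 h these falls were 1.79-fold (DNMT3B), 1.54-fold (CRIPTO), 1.52-fold (L1TD1), 1.25-fold (POU5F1) and 1.22-fold (LIN28A). NANOG, SOX2 and DPPA4 were not called. Of 15 fibroblast markers, 6 were well above background on all 19 arrays (COL1A1, COL1A2, COL5A1, THY1, PDGFRA and FBLN1), and COL6A3, FAP and FBN1 on 0 arrays. Between the same windows, late over early signal of the 6 detected throughout was 0.913 (COL1A1), 1.29 (COL1A2) and 1.04 (COL5A1). For THY1, PDGFRA and FBLN1 it was 0.839, 0.958 and 0.812. The part of feeder cells in the results was not tested. In bulk RNA, fewer cells of a type and less RNA per cell cannot be told apart. Signals are given after scaling each array to its 75th percentile, at a common value of 871, and they are compared within a probe only.

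The promoters of SP5, DKK1 and LEF1 are shown because TCF/LEF factors act on all 3 genes. SP5 and LEF1 had different courses in the data, while DKK1 was near the detection limit and had no course that could be called. Each sequence is the 250 bases before the gene's start in RefSeq (GRCh38.p14), 5′ to 3′ along the gene's own strand, and capitals mark the TCF/LEF words on either strand, which are CTTTG followed by AT, AA, TT or TA. SP5 lies at chr2:170715087-170715336 on the plus strand, DKK1 at chr10:52314031-52314280 on the plus strand and LEF1 at chr4:108166302-108166551 on the minus strand.
SP5: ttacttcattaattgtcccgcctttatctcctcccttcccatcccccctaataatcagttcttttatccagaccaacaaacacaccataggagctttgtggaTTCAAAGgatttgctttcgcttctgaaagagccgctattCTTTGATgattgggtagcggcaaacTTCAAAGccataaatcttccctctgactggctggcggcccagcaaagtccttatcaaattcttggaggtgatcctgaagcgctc
DKK1: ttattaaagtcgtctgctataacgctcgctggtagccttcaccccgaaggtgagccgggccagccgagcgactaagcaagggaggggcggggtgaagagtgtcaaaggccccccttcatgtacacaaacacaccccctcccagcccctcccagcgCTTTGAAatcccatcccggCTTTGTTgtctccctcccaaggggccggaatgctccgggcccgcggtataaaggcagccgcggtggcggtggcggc
LEF1: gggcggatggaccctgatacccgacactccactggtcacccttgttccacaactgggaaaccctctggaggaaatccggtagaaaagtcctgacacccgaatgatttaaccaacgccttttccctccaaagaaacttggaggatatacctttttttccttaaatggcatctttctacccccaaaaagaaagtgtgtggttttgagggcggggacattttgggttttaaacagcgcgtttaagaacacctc
The SP5 window held 3 matches, from 148 to 142, from 109 to 103 and from 84 to 78 bases before the start. The DKK1 window held 2 matches, from 95 to 89 and from 76 to 70 bases before the start, and the windows of LEF1, SFRP2 and WNT3 held 0. No promoter sequence of AXIN2, NKD1, LGR5, SFRP1 or FZD7 was at hand, so these genes were not searched. The 4 words do not overlap one another on the same strand, but words on opposite strands can share bases and are then counted separately. Of 35116 promoter windows of this length, 12.0% held at least 1 match, 1.21% at least 2 and 0.122% at least 3. A match is a run of letters, and no binding of a factor was measured here.

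Over 72 h, 5 of the 9 tested genes fell by the slope of log2 signal on time, namely WNT3, FZD7, SFRP1, SFRP2 and NKD1, and 0 rose (limma, Benjamini-Hochberg over all 32111 tested probes, adjusted p under 0.05). LEF1 lost most of its signal within the first 16 h. AXIN2 and SP5 followed courses with more than 1 turn. Of all tested probes 22.4% fell and 30.9% rose. The median slope of the 9 genes was -0.0138 on the log2 scale per hour, against 0.00236 for all tested probes. By a cubic curve in time, 8 of the 9 genes changed, all but DKK1. The background of that test was 76.8% of probes, so this count alone says little about the pathway. With the slide as a block 0 of the 9 slopes passed, where 4.47% of probes fell and 4.71% rose, and 4 of the 9 genes passed the cubic test, where 31.6% of probes did. These 4 were AXIN2, LEF1, SFRP1 and SFRP2.

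WNT3 (NM_030753), a ligand of the β-catenin branch, fell early and stayed low on all later arrays but one. Its signal was 1672, 1408, 1088, 782, 846 and 770.4 at 3, 4, 6, 8, 10 and 12 h. It was 572, 781, 659.5, 432, 576, 452, 387 and 483 from 14 to 42 h, and 393, 336, 366, 899.9 and 383 from 48 to 72 h. The 3 earliest arrays lay above all others, and the 66 h array stood alone among the late ones. The mean log2 signal at 60, 66 and 72 h was 1.45 below that at 3, 4 and 6 h, a 2.73-fold fall, and the slope was -0.0211 ± 0.00512 (SE) per hour (adjusted p = 0.00198). The slide block gave a slope of -0.0142 (adjusted p = 0.528), and the slopes within the 3 slides were -0.125, -0.0237 and 0.0225. Leaving out any 1 array kept the call.

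FZD7 (NM_003507), a Frizzled receptor that is abundant in hESCs, went through 2 falls with a recovery between them. Its signal was 8251, 5558, 3293, 3019.6, 2510.4 and 2814 from 3 to 12 h, a 2.51-fold drop in the first 3 h of sampling. It was 2968, 4277, 3972, 4317, 4528, 3814, 4425 and 3687 from 14 to 42 h, and 3911, 3193, 1936, 2054 and 1879 from 48 to 72 h. The 3 latest arrays were lower than all 16 others. The slope was -0.0138 ± 0.00453 per hour (adjusted p = 0.0152), and the late mean was 2.72-fold below the early one. Without the 72 h array the slope was -0.0119 and no longer passed (adjusted p = 0.0635), with a change of -1.42 on the log2 scale from early to late arrays instead of -1.45. From 3 to 54 h the slope was -0.00329 (adjusted p = 0.689), and the slide block gave -0.0210 (adjusted p = 0.312).

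SFRP1 and SFRP2 encode secreted Frizzled-related proteins, which carry a Frizzled-like domain and can bind WNT ligands outside the cell. Both declined over the first day and then took different courses. SFRP1 (NM_003012) was at 6839, 6514, 6139.8, 5221, 4916 and 4732 from 3 to 12 h. It was at 4111, 4035, 3996, 3857, 4702, 3527, 4451 and 5016 from 14 to 42 h, and at 4804, 4974, 3998, 2529.7 and 1704 from 48 to 72 h. The 3 h array was the highest, the middle arrays formed a plateau, and the signal then fell 2.82-fold from 48 to 72 h. The slope was -0.0148 ± 0.00345 per hour (adjusted p = 0.00139), and late signal was 2.51-fold below early signal. The cubic test passed with the slide as a block (adjusted p = 3.9e-05), while the slope, at -0.0202 with the block, did not (adjusted p = 0.207). The slope was also not called from 3 to 54 h (-0.00643, adjusted p = 0.191).

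SFRP2 (NM_003013) was at 5707, 5792, 5515, 4892, 4684 and 4682 from 3 to 12 h. It was at 4003, 4069, 3862, 3285, 3862, 3138, 3679 and 3455 from 14 to 42 h, and at 3175, 2913, 2851, 3495 and 4710.2 from 48 to 72 h. It thus reached its lowest value at 60 h and at 72 h was back at the level of 10 and 12 h. Its slope was -0.00961 ± 0.00262 per hour (adjusted p = 0.00473), with late signal 1.57-fold below early signal. The slide block took its slope to 0.000328 (adjusted p = 0.981), whereas its cubic curve passed (adjusted p = 0.0106). From 60 to 72 h SFRP1 fell 2.35-fold while SFRP2 rose 1.65-fold, a difference read from 3 arrays of 1 slide and not tested.

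DKK1 (NM_012242), a secreted antagonist that blocks the LRP co-receptor, was near the detection limit. It was well above background on 6 arrays, those of 6, 12, 28, 42, 54 and 66 h, with signals of 55.3, 38.4, 48.4, 38.1, 32.1 and 67.5. The remaining 13 arrays gave 13.7 to 30.8, not well above background. Neither the slope (adjusted p = 0.931) nor the cubic curve (adjusted p = 0.930) passed, and at this signal a modest change was not detectable. LGR5, a receptor for R-spondins that marks many WNT-responsive stem cells, was not well above background on any array (4.21 to 17.7), and these values have no order.

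AXIN2 (NM_004655) encodes a scaffold of the complex that degrades β-catenin and is a widely used readout of the pathway. The probe with the higher mean signal ranged from 946 at 72 h to 2055 at 48 h, with a median of 1329. It was between 1129 and 1664 up to 32 h, then 1659, 1791, 2055 and 2033 at 36, 42, 48 and 54 h, and 1283, 1052 and 946 at 60, 66 and 72 h. The 4 arrays from 36 to 54 h were therefore a broad peak, which spanned the boundary between the second and the third slide, and the last 2 arrays were its lowest. The slope did not pass (-0.00153 ± 0.00323 per hour, adjusted p = 0.710), the cubic curve did (adjusted p = 0.00139), and it also did with the slide as a block (adjusted p = 0.00871). From 3 to 54 h alone AXIN2 rose (slope 0.00934, adjusted p = 0.0454). The other probe followed a different course, from 767 at 28 h to 1407 at 32 h, with 1003, 1396 and 1045 at 60, 66 and 72 h, and passed neither the slope (adjusted p = 0.0525) nor the cubic test (adjusted p = 0.0913). With the slide as a block the cubic curve of this other probe did not pass either (adjusted p = 0.256). The late decline and the cubic calls of AXIN2 thus rest on 1 of its 2 probes. Its rise from 3 to 54 h was read from that probe only.

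NKD1 (NM_033119), an inhibitor that binds Dishevelled inside the cell and is itself switched on by the pathway, held its level for more than a day and then declined. From 3 to 32 h it was between 69.1 and 108. It was then 65.6, 53.3, 44.3, 36.3, 38.4 and 48.1 at 36, 42, 48, 54, 60 and 66 h, and 15.2, not well above background, at 72 h. Each array from 36 h on was lower than all arrays from 3 to 32 h. The slope was -0.0276 ± 0.00397 per hour (adjusted p = 1.28e-05), kept without any 1 array, and the late mean was 3.04-fold below the early one. Without the 72 h array the fall between these windows was -1.11 on the log2 scale instead of -1.61. The slide block left the slope nearly as large (-0.0293) with an adjusted p of 0.0766.

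LEF1 (NM_016269) encodes a TCF/LEF factor that is both an effector of β-catenin and a target of it. Its signal was 599.7, 751, 466, 295, 183 and 134 at 3, 4, 6, 8, 10 and 12 h. At 14 and 16 h it was 32.3 and 31.3 and not well above background, on the arrays with the smallest shares of detected probes. From 20 h it was detected again at 42.7, 57.4, 53.6, 50.8, 75.7, 100.1, 59.5, 84.8, 136, 147 and 71.0. The fall was steep and ordered from 4 h on and was followed by a partial return, with no later array reaching the early level.

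Against the mean of 3, 4 and 6 h (594), LEF1 was 4.44-fold lower at 12 h, on the same slide, at least 9.46-fold lower over 14 and 16 h, 13.9-fold lower at 20 h and 4.04-fold lower at 66 h. The slope within the first slide was -0.276 per hour, and 0.0552 and 0.0217 within the second and the third. A straight line over 72 h did not pass (-0.0225 ± 0.0132, adjusted p = 0.157), whereas the cubic curve did without (adjusted p = 6.04e-06) and with the slide as a block (adjusted p = 0.000797). Over 3 to 54 h the slope was also called (-0.0505, adjusted p = 0.0384).

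The TCF/LEF family has 4 members, and the other 3 are given as the complete family. TCF7, the relative that also acts mainly as an activator, fell from 1198 at 3 h to 337 at 32 h and stood at 826 at 66 h. TCF7L1, which acts mainly as a repressor, stayed between 5644 and 8304 up to 32 h and then fell to 1742 at 72 h. TCF7L2 was between 249 and 344 on the first slide and between 464 and 618 on the second. LEF1 and TCF7 thus fell first, within the first slide as well as across the slide boundary, and TCF7L1 fell later. TCF7L1 fell by the slope (adjusted p = 1.29e-07; with the slide as a block 0.0227), TCF7 changed by the cubic curve only (adjusted p = 2.15e-07; 0.0114 with the block), and the cubic curve of TCF7L2 (adjusted p = 0.000745) was lost with the block (adjusted p = 0.702). The step of TCF7L2 between 12 and 14 h coincides with the change of slide, so that time and slide cannot be told apart there.

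SP5 (NM_001003845), a transcription factor that is a direct target of β-catenin in hESCs, rose through the first day and then varied widely. It was at 1162, 1183, 1666, 1256, 1597 and 1924 from 3 to 12 h. It was at 1842, 1806, 2459.6, 2877, 3929, 2384, 3366 and 1189 from 14 to 42 h, and at 2125, 1168, 1444, 4566 and 1777 from 48 to 72 h. Values from 20 to 36 h were higher than those before, the arrays at 42 and 54 h were back near the 3 h level, and the highest value of all came at 66 h. The scatter around the cubic curve was 0.51 on the log2 scale, against 0.108 for SFRP1. The slope did not pass (0.00736 ± 0.00602, adjusted p = 0.314). The cubic curve did (adjusted p = 0.0393), but not in 9 of the 19 fits that each left out 1 array (3, 4, 8, 10, 20, 24, 28, 32 or 36 h; highest adjusted p 0.0846), nor with the slide as a block (adjusted p = 0.439).

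**Figure D1:**
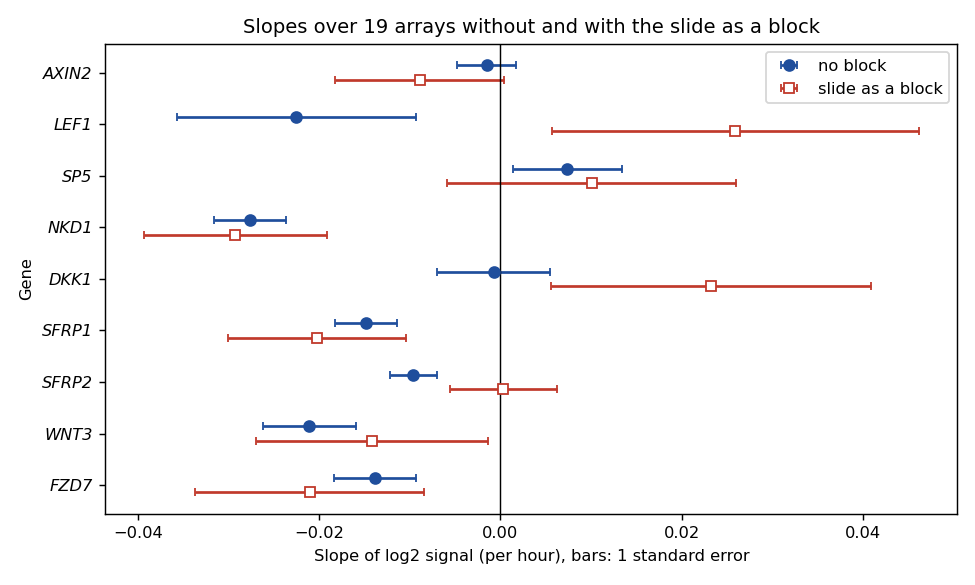
Slope of log2 signal per hour over 19 arrays for the 9 tested genes, without (filled circles) and with (open squares) the slide as a block, with bars of 1 standard error. Without the block WNT3, FZD7, SFRP1, SFRP2 and NKD1 lay below 0 with adjusted p under 0.05, and with the block 0 of the 9 slopes passed.

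The 66 h array was looked at separately after its values had been seen. Each inner array was compared with the straight line between its neighbours in time, which for 66 h were the 60 and 72 h arrays of the same slide. At 66 h SP5 stood 1.51 above this line on the log2 scale, WNT3 1.26 and LEF1 0.58, whereas AXIN2, SFRP1, SFRP2 and FZD7 lay between -0.07 and 0.11. DKK1 stood 1.95 above it, with both neighbours not well above background, and NKD1 0.996, with its 72 h neighbour not well above background. Of the 9 genes, SP5, WNT3 and DKK1, 3 in all, were at least 1 above the line, against 1.56% of all tested probes, with no test of this count.

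On the same array 6 of the 10 primitive streak and mesoderm markers were at least 1 above the line. They were TBXT (2.38), HAND1 (2.16), EOMES (1.83), MIXL1 (1.41), MESP1 (1.23) and APLNR (1.01), while GSC was at 0.54, MESP2 at 0.22, KDR at -0.42 and TBX6 at -0.76. MIXL1 was not well above background at 72 h, and APLNR was well above background on only 2 of the arrays of 60, 66 and 72 h. TBXT had its lowest signal of all arrays, 33.7, at 60 h, which enters its departure. Of the 8 tested fibroblast markers and the 8 hESC markers, 0 were at least 1 above the line. Still, NANOG, COL1A2, COL5A1 and PDGFRA had their highest signal at 66 h, and the rest of these had theirs at other times. Scatter around the line was not compared between bright and dim probes. Trophoblast and amnion markers were not compared with the line. Among them CDX2 (168), GATA3 (322), TFAP2A (101), CGA (98.7) and ISL1 (91.1) also had their highest signal at 66 h. GATA2, TFAP2C, KRT7 and GABRP had theirs at other times, so the high values at 66 h were not particular to streak and mesoderm markers. The 66 h array had the largest median departure from its neighbours in size (0.186, against 0.0886 to 0.171 for the other 16 inner arrays). With 1 array at this time, a difference between cultures and a change with time cannot be told apart. Without this array the change of SP5 between the early and late arrays was 0.28 instead of 0.78 on the log2 scale.

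The pathway around these genes was read from a list of 108 genes by role, of which 92 were tested, and 31 fell, 11 rose and 50 were not called by the slope. Without the 10 genes above, 26 of 83 fell and 11 rose, beside 22.4% and 30.9% of all probes. With the slide as a block WIF1 and TCF7L1 fell and NKD2 rose. The counts by role that follow stand beside the same 22.4% of all tested probes that fell and 30.9% that rose, and they were not tested against them. The list's median change between the early and late arrays was -0.29 on the log2 scale, against 0.13 for all tested probes.

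Among 18 secreted antagonists, 16 were tested, 7 fell and SFRP5 rose. CER1, an antagonist of NODAL, BMP and WNT, fell by the slope (adjusted p = 4.19e-05), from 137, 158 and 190.2 at 3, 4 and 6 h to 69.0 at 66 h, with the 60 and 72 h arrays not well above background. WIF1, which binds WNT ligands outside the cell, fell from 958 at 3 h to 199.9 at 72 h (3.24-fold, adjusted p = 1.45e-08; 0.00458 with the slide as a block).

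Of 16 receptors, all tested, 6 fell and FZD3 and FZD4 rose. FZD10 went from 883 at 3 h to 132 at 72 h and was 4.41-fold lower late (adjusted p = 4.5e-05). Its early course was like that of FZD7, with 446 at 6 h and 272 at 10 h. Of 19 ligands 10 were tested, and WNT3 fell and WNT6 rose. WNT6 dipped to values not well above background at 14, 16 and 20 h and was 1.90-fold higher late than early (adjusted p = 0.0147), with its highest signal, 359, at 66 h. WNT11 and WNT5A, ligands of the branch that works without β-catenin, changed by the cubic curve only (adjusted p = 0.0201 and 0.000400), and with the slide as a block WNT5A passed (adjusted p = 0.00407) and WNT11 did not (0.0675). WNT11 fell from 153 at 3 h to 27.0 at 12 h, and WNT5A fell from 259 to 63.0 over these hours and reached 367 at 66 h.

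Of 27 direct target genes 24 were tested, 4 rose and 4 fell. RNF43, a ubiquitin ligase that removes Frizzled receptors from the cell surface, rose from 396 at 3 h to 1843 at 72 h (3.95-fold late over early, adjusted p = 0.000414). The rise was not steady, with 1613 at 36 h and 744 at 42 h. NKD2, the relative of NKD1, dipped to 856 at 16 h and rose to 4899 at 72 h (1.91-fold, adjusted p = 0.0150; 0.0155 with the slide as a block). CDX1 and EPHB3 rose 1.74-fold (adjusted p = 0.000716) and 1.45-fold (adjusted p = 0.0298), and ZNRF3, the relative of RNF43, fell together with NKD1, CDX2 and CDX4. With the slide as a block the slopes of RNF43 (adjusted p = 0.255), CDX1 (0.626) and EPHB3 (0.251) did not pass. CDX1 went from 565 at 12 h to 1142 at 14 h, where the slide changed, so that time and slide cannot be told apart there. Both counts, 4 of 24, are smaller shares than those of all tested probes, and nothing is read from them about the targets as a group.

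Of 14 transduction genes 6 fell, CTNNB1 among them, and 3 rose, against 22.4% and 30.9% of all tested probes. Of 12 nuclear factors, 11 were tested, and TCF7L1, TLE3 and TLE4 fell. The number of rising genes in the whole list depended on the scaling, with 2 (RNF43 and CDX1) when arrays were scaled to their median and 1 (RNF43) when they were scaled to spike-in RNA, and 41 and 50 genes fell. The median change of all tested probes was -0.24 and -0.52 under these scalings. Their median slope was -0.00290 and -0.00610 per hour, against 0.00236 with the 75th percentile. The shares of all tested probes called under these scalings are not given here, so nothing is read from these counts about the pathway.

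**Figure D2:**
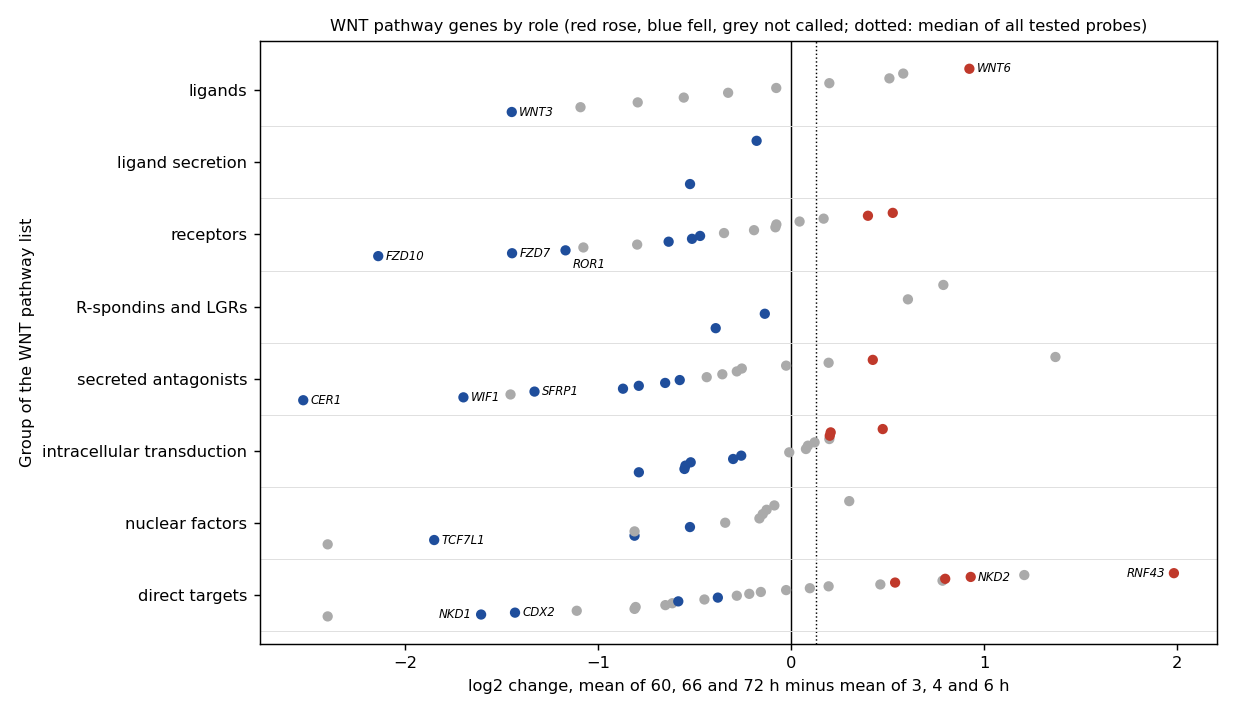
Change in log2 signal from the mean of 3, 4 and 6 h to the mean of 60, 66 and 72 h for the tested genes of the WNT pathway list by role, with genes of more than 1 role drawn in each. Red points rose and blue points fell by the slope (adjusted p under 0.05), grey points were not called, and the dotted line is the median of all tested probes (0.13), with RNF43 farthest to the right and CER1, with 2 late arrays not well above background, farthest to the left.

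The genes with the most similar courses were listed for the 6 genes well above background on every array, by Pearson's r over the 19 arrays among 13966 genes, as a description in which shared time and slide enter each value. WNT3 was closest to SERTAD4 (r = 0.942), MTA2 (0.933) and NODAL (0.926), the last a TGF-β family ligand that maintains pluripotency and induces the primitive streak. SFRP1 was closest to EXOC2 (r = 0.955), RPRML (0.954) and SCG3 (0.945), and SFRP2 to NRK (0.955), MYH2 (0.948) and LIPA (0.934). FZD7 was closest to ADAMTS8 (r = 0.903), CASP9 (0.867) and LRIG1 (0.864). AXIN2 was closest to MBTD1 (r = 0.929), CXADRP3 (0.873) and AUTS2 (0.869), and SP5 to ZBTB25 (0.890), FAM13A (0.799) and POFUT4 (0.797). After the mean of each slide was removed, the r of these 18 genes lay between 0.737 and 0.935.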

How the data were processed

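Total RNA of 19 samples, 1 per time point, was labelled with Cy3 and hybridized to one-colour Agilent arrays. The authors deposited the scanner output of Agilent Feature Extraction 10.10.1.1, which gives for every spot an intensity with the background subtracted and no scaling between arrays. The deposited flags, scores of 0 or 1, mark spots that are saturated, outliers or well above background. The authors also deposited a table of the same intensities times 1 factor per array (0.905 to 1.38), blank where a spot was not well above background. Its rule of scaling is not given in the sources used here.

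Control spots and 232 to 814 outlier spots per array were left out. No spot was saturated. Spots of a probe were averaged, and log2 intensity was scaled to the 75th percentile of the array (655 to 1003). Probes carry RefSeq accessions, and 28174 of 50683 were matched to 20503 symbols (GRCh38.p14). A gene was its probe with the highest mean signal. Copies of a probe on an array differed by a median SD of 0.0411 to 0.0587 on the log2 scale, and precision is limited by the number of arrays.

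For the trends, limma 3.58.1 (R 4.3.3) was run on 32111 probes that were well above background on 5 or more arrays, as a slope on hours or a cubic polynomial (degree 3). In data simulated for the slope on these 32111 probes, with 200 changed, 84 of 100 slopes of 0.02 and 97 of 100 of 0.04 were recovered, with 12 false calls. The simulated scatter was independent between arrays, with no slide effect and no curve in time, so calls that arise from these are not covered. A fold is a bound if a window held no detected array, and no test was made of folds. Python 3.11.15 made the tables.

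The genes named were the 10 members, the 5 largest rises and 5 largest falls of the WNT pathway list among called genes detected on all 3 arrays of whichever window was brighter, up to 3 genes of the list with the largest ranges that changed by the cubic test only, and the 3 genes most like each member. Other TCF/LEF factors, the markers at 66 h and further genes of short counts were named after their values were seen. The members and lists were chosen with earlier results of these data known. Alternatives were other scalings (array median, spike-in RNA from 7 of 10 levels, the deposited table, normexp with offset 50 on the median pixel intensity followed by quantile normalization), other filters on background, the slide as a block, log2 hours, a natural spline with 4 degrees of freedom, 3 to 54 h only, the mean of a gene's probes, a Spearman correlation and each array left out. No gene coordinates are printed except those of the RefSeq promoters, whose build differs from that named on the arrays.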

Additional observations from a re-analysis of the deposited data

How the results depend on the processing

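No paired analysis was possible because no time point has a second array. The slide block changed most: of the 9 tested genes 0 fell by the slope, with a slope of 0.000328 for SFRP2, 4 changed by the cubic curve, and 2 genes of the pathway list fell and 1 rose. From 3 to 54 h 1 of the 9 genes rose, AXIN2 by the probe with the higher mean signal (slope 0.00934). In the pathway list 2 genes rose under scaling to the array median, 1 under spike-in RNA, where 50 fell, and 7 with the deposited table. Except for the slide block, the share of all tested probes called is not given for these fits or for those without 1 array. Their counts show how the calls depend on the processing, and nothing is read from them about the pathway.

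The change from early to late arrays moved with the scaling. With the array median it was -0.82 (AXIN2), -1.98 (NKD1), -1.70 (SFRP1), -1.02 (SFRP2) and -1.82 (WNT3) on the log2 scale. With spike-in RNA it was -1.09 (AXIN2), -3.05 (LEF1), 0.14 (SP5), -2.25 (NKD1), -1.97 (SFRP1), -1.30 (SFRP2), -2.09 (WNT3) and -2.09 (FZD7). With normexp it was -0.77 (NKD1), -1.12 (SFRP1) and -0.40 (SFRP2), and with the deposited table -1.16 (NKD1). From 3 to 72 h alone it was -0.79 (AXIN2), -3.08 (LEF1), -2.52 (NKD1), -2.01 (SFRP1), -0.28 (SFRP2), -2.12 (WNT3) and -2.13 (FZD7).

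Leaving out 1 array gave changes from -1.94 to -1.11 (NKD1), -1.64 to -1.03 (SFRP1), -0.85 to -0.48 (SFRP2) and -1.87 to -1.22 (WNT3), with 4 to 5 of the 9 genes falling, 7 to 8 changing by the cubic curve, and 27 to 31 falling and 9 to 13 rising genes of the pathway list. The straight line of LEF1, not called over 72 h, was called with spike-in RNA (-0.0310), with the deposited table (-0.0317) and from 3 to 54 h (-0.0505). The causes of these differences were not tested. DKK1, LGR5, late NKD1 and LEF1 at 14 and 16 h lie at or below the detection limit, where changes are least certain.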
